A study of Mus musculus with 6 samples.

Results

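The Mrps genes are named for the proteins of the small subunit of the mitochondrial ribosome, although the products of 3 of them, Mrps18a, Mrps30 and Mrps36, are now placed elsewhere. They were taken by symbol, as every gene on the array written Mrps and a number, with or without a letter, and 29 such genes were found among 18192 genes with a symbol. RNA came from mouse marrow sorted on the transferrin receptor CD71 and on the erythroid antigen Ter-119, which together mark nucleated erythroid precursors. Rb-null mice were EpoR-GFPcre/+; Rb fl/fl, so that both alleles of Rb1, the retinoblastoma gene, were floxed, and control mice were EpoR-GFPcre/+; Rb fl/+, with a single floxed allele. All animals thus carried a GFP-Cre fusion at 1 allele of the erythropoietin receptor locus, so the Cre acts where that receptor gene is active and 1 copy of the locus is altered in both groups. There were 3 Rb-null and 3 control arrays, numbered 1 to 3 in each group, and no age of the mice is given in those labels. Whether each array stands for its own animal is not said either, so the p-values rest on a spread between samples that may be technical.

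Mitochondria carry their own ribosomes, which translate the mRNAs of the mitochondrial genome into core subunits of the respiratory chain and of ATP synthase. The small subunit binds the mRNA and reads its codons, and the large subunit joins the amino acids. Apart from the rRNAs, its parts are nuclear gene products imported into the organelle. Some have homologs in the bacterial ribosome and others are found only in mitochondrial ribosomes. Erythroid precursors depend on mitochondria for heme and iron-sulfur clusters and clear them as the reticulocyte matures. The series title ties Rb to leaving the cell cycle and to the making of mitochondria, and the comparison of Rb-null with control cells asks whether genes of the organelle's translation machinery differ between them.

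Promoters of 5 members are shown, picked by the differences described below. They leave out the members with the most negative and the most positive value, Mrps31 and Mrps2. Mrps21, Mrps18a and Mrps14 had the smallest p-values among the members, Mrps22 was lower in every pair, and Mrps18c had a log2 fold change nearest to 0. Each sequence holds the 250 bases before the annotated transcription start, 5′ to 3′ on the gene's strand, from RefSeq on GRCm38.p6. Capitals mark matches on either strand to GCGCA followed after any 1 base by GCGC, a core of the site of nuclear respiratory factor 1 (Nrf1), to CCGGAAG, a site of ETS factors such as GABP, or to AAGATGG, a core of the YY1 site.
Mrps21 (chr3:95871515-95871764, minus strand): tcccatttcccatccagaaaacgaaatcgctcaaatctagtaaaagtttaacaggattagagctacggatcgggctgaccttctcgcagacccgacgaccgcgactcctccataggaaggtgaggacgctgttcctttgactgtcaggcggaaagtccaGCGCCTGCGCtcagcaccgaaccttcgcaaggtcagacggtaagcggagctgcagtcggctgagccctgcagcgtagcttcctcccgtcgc
Mrps18a (chr17:46110754-46111003, plus strand): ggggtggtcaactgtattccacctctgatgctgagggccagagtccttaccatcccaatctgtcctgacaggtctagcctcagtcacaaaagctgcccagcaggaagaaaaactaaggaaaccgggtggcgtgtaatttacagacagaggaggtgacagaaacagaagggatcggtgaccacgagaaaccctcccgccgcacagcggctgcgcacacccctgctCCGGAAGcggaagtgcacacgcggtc
Mrps14 (chr1:160194965-160195214, plus strand): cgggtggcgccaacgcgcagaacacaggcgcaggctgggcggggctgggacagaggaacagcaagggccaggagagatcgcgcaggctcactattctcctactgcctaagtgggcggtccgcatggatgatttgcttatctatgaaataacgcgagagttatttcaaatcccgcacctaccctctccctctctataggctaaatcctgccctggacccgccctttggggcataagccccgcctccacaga
Mrps22 (chr9:98601680-98601929, minus strand): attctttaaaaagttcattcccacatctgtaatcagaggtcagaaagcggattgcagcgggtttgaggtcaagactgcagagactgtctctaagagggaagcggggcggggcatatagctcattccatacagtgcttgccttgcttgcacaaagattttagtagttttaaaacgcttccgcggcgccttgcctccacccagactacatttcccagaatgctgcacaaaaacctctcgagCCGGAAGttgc
Mrps18c (chr5:100798509-100798758, plus strand): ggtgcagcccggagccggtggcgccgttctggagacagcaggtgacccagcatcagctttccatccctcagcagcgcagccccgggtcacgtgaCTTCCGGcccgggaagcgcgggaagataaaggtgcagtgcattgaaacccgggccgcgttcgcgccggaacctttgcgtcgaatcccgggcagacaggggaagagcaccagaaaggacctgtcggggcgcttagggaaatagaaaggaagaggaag
The Mrps21 window holds a match to the Nrf1 core that begins 91 bases before the start. Mrps18a and Mrps22 have ETS matches that begin 26 and 11 bases before it, and Mrps18c has one at 156 bases. The Mrps14 window holds no match to these letters, and neither do those of Mrps31 and Mrps2, which are not shown. In the bases just past the start, which are not printed, Mrps21 has an ETS match and Mrps18a a YY1 match.

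In windows of 300 bases, which run 50 bases past the start, 26 of the 29 members had a promoter in the RefSeq table. The ETS letters occurred in 11 of these 26 (42.3%), against 17.7% of the 10639 tested genes with a promoter. The YY1 letters occurred in 6 (23.1%, against 8.19%) and the Nrf1 letters in 3 (11.5%, against 10.1%). Of the 21 such members with a negative log2 fold change 10 held the ETS letters, and of the 5 with a positive one 1 did. The ETS letters lay before the start in 6 of the 11 members that held them, against 1474 of the 1888 tested genes that held them. Over all genes with a promoter this was 6 of 26 members and 1474 of 10639 tested genes. Among 43 large subunit genes with a promoter, 34.9% held the ETS letters, 16.3% the YY1 letters and 23.3% the Nrf1 letters. The median GC content was 59.2% in the members' windows and 59.8% in those of the tested genes. A match is a description of letters and not of binding.

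Values are normalized intensities, that is, deposited intensities after quantile normalization of log2(intensity + 16), turned back to the linear scale. Differences are log2 fold changes, Rb-null over control, on that log2 scale. The offset shrinks the fold change of dim probe sets. All 29 members passed the filter on dim probe sets and were tested among 13232 genes. Arrays of the same number are called a pair below, since they deviated together from their group means. Both arrays numbered 3 stood apart, with 18S ribosomal RNA control probe sets averaging 542 (Rb-null) and 1230 (control), against 32.6 to 66.2 on the other 4 arrays, and members whose log2 fold change moves by over 1.5 times or changes sign without both are also given without them. Rb1 itself read 4334, 3277 and 3092 on Rb-null arrays 1, 2 and 3, against 2923, 2025 and 1553 on control arrays 1, 2 and 3. The sources used here do not give the position of its probes relative to the loxP sites, so this does not check the labels, and directions rest on the labels alone. Tfrc, which encodes CD71, read 7142 to 8601 on Rb-null arrays and 6560 to 8276 on control arrays.

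Most members had lower signal in Rb-null than in control cells, by a modest amount. In such bulk samples fewer cells of a type and less RNA per cell cannot be told apart. The log2 fold change was negative for 24 of 29 members (82.8%), against 54.6% of all tested genes, and the members' median was -0.40, against -0.036 over all tested genes. The median was -0.18 without control replicate 2, -0.23 without Rb-null replicate 3, -0.20 with the granulocyte level as a covariate and -0.57 without Rb-null replicate 2. The values ran from -0.88 for Mrps31 to 0.33 for Mrps2, and 10 members stood at -0.5 or lower (34.5%, against 8.25% of all tested genes). No member passed the limma test adjusted over all genes, either as fitted without regard to array numbers (0 of 29, with 0% of all tested genes called) or with the array number as a block (0 of 29, 0% of all tested genes). At unadjusted p under 0.05, limma gave 3 lower members without the block (1.51% of all tested genes were lower by that rule) and 13 with it (44.8% of members, against 9.14% of all tested genes), and 0 higher members in either fit (2.55% and 7.77% of all tested genes).

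**Figure D1:**
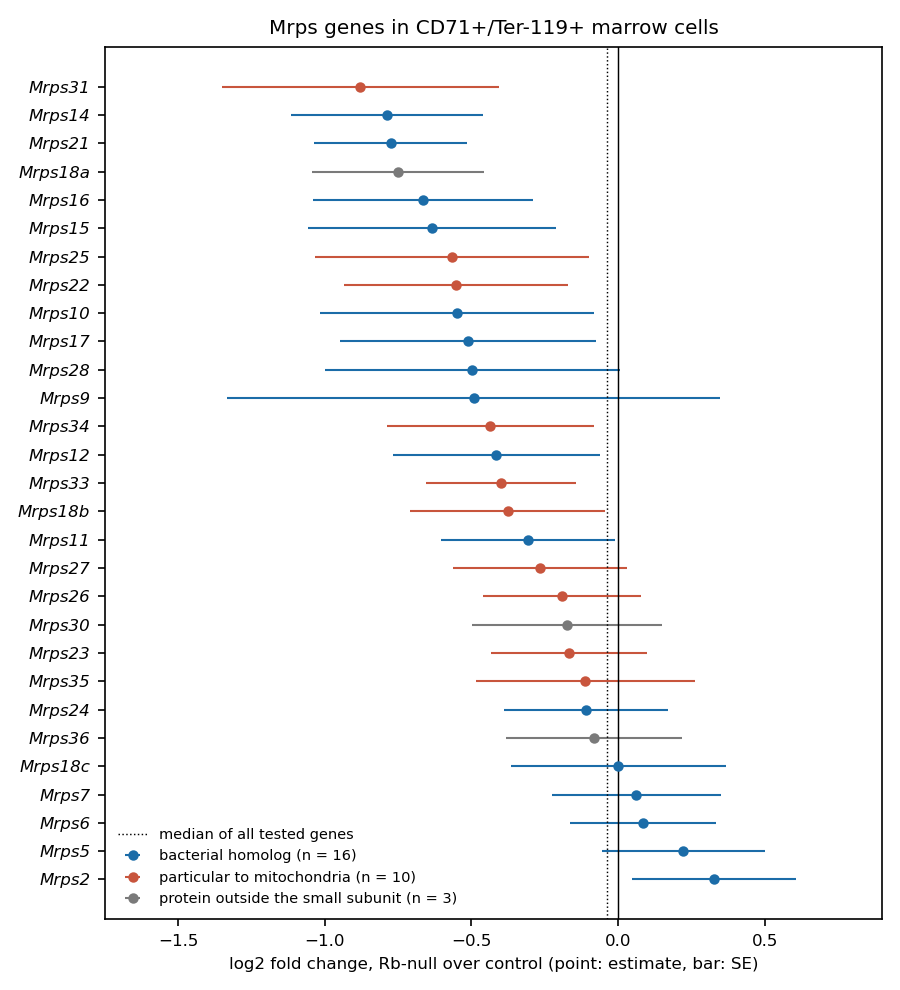
Log2 fold change of each Mrps gene (x axis, Rb-null over control, bars show SE of the limma fit without the block), with genes down the y axis ordered by value and coloured by the kind of protein. From -0.88 for Mrps31 to 0.33 for Mrps2, 24 of 29 estimates lie below 0, and the dotted line marks the median of all tested genes at -0.036.

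Mrps21, homolog of a small protein of the bacterial subunit, had the smallest p of the members without the block. It read 157, 154 and 133 on Rb-null arrays 1, 2 and 3, against 215, 278 and 308 on control arrays 1, 2 and 3. All 3 Rb-null values lay below all control values, and the means were 148 ± 12.7 in Rb-null and 267 ± 47.7 in control cells (SD, n = 3 each). The log2 fold change was -0.77 (SE 0.26), with limma adjusted p = 0.969, and 0.157 with the block. A second, dimmer Mrps21 probe set past the filter had -0.040 (SE 0.35).

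Mrps14, a homolog of a protein in the head of the bacterial subunit, read 206, 309 and 158 on Rb-null arrays, against 334, 513 and 333 on control arrays. The groups did not overlap, and array 2 was the highest of each group. The log2 fold change was -0.79 (SE 0.33), with differences of -0.66, -0.70 and -1.004 in pairs 1, 2 and 3. Its limma adjusted p was 1.00, and 0.124 with the block. With the block, a variance trend and robust moderation, Mrps14 was the 1 member that limma called, with adjusted p = 0.0385, where 1.39% of all tested genes were called lower. A second Mrps14 probe set past the filter had -0.10 (SE 0.28).

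Mrps33, a protein particular to mitochondrial ribosomes, was the other small subunit gene whose groups did not overlap. It read 144, 169 and 121 in Rb-null cells and 175, 209 and 199.9 in control cells, for arrays 1, 2 and 3. The log2 fold change was -0.40 (SE 0.26, limma adjusted p = 1.00, and 0.296 with the block). With Mrps18a, described below, 4 of 29 members had groups that did not overlap with Rb-null lower (13.8%, against 4.78% of all tested genes), and 0 had Rb-null higher (5.13% of all tested genes). The same counts were 8 lower and 0 higher of 47 large subunit genes, and 2 lower and 0 higher of 22 cytosolic small subunit genes.

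Mrps31 had the most negative log2 fold change, -0.88 (SE 0.47), and depended on 1 array. This protein, particular to mitochondrial ribosomes, read 63.96, 113 and 18.5 in Rb-null cells, against 94.6, 161 and 97.7 in control cells. Rb-null array 3 was far below the others, and Rb-null array 2 lay above 2 of the 3 control arrays. Without Rb-null replicate 3 the log2 fold change was -0.36, and without both arrays numbered 3 it was -0.46.

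Mrps16 and Mrps15, both homologs of bacterial proteins, followed with log2 fold changes of -0.66 (SE 0.37) and -0.64 (SE 0.42). Human mutations of MRPS16 are a known cause of combined respiratory chain deficiency. Mrps16 read 88.8, 147 and 96.8 in Rb-null cells, against 102, 230.0 and 250.2 in control cells. Mrps15 read 57.1, 133 and 78.9 in Rb-null cells, against 72.5, 184 and 203 in control cells. In both genes the groups overlapped, with both arrays numbered 1 low, and the difference was widest in pair 3. Without both arrays numbered 3 the values were -0.38 for Mrps16 and -0.36 for Mrps15. All 3 Mrps15 probe sets past the filter were lower, the other 2 with -0.45 (SE 0.43) and -0.30 (SE 0.25).

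Mrps22, particular to mitochondrial ribosomes and also linked to respiratory chain deficiency in humans, read 81.3, 123 and 43.0 in Rb-null cells, against 114, 172 and 86.9 in control cells. Levels went with the array number, with array 2 highest and array 3 lowest in each group, and within each pair Rb-null was lower. The pair differences were -0.42, -0.44 and -0.80, and the log2 fold change was -0.55 (SE 0.38, limma adjusted p = 1.00, and 0.206 with the block). Leaving out 1 array gave from -0.84 (without Rb-null replicate 2) to -0.23 (without Rb-null replicate 3).

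**Figure D2:**
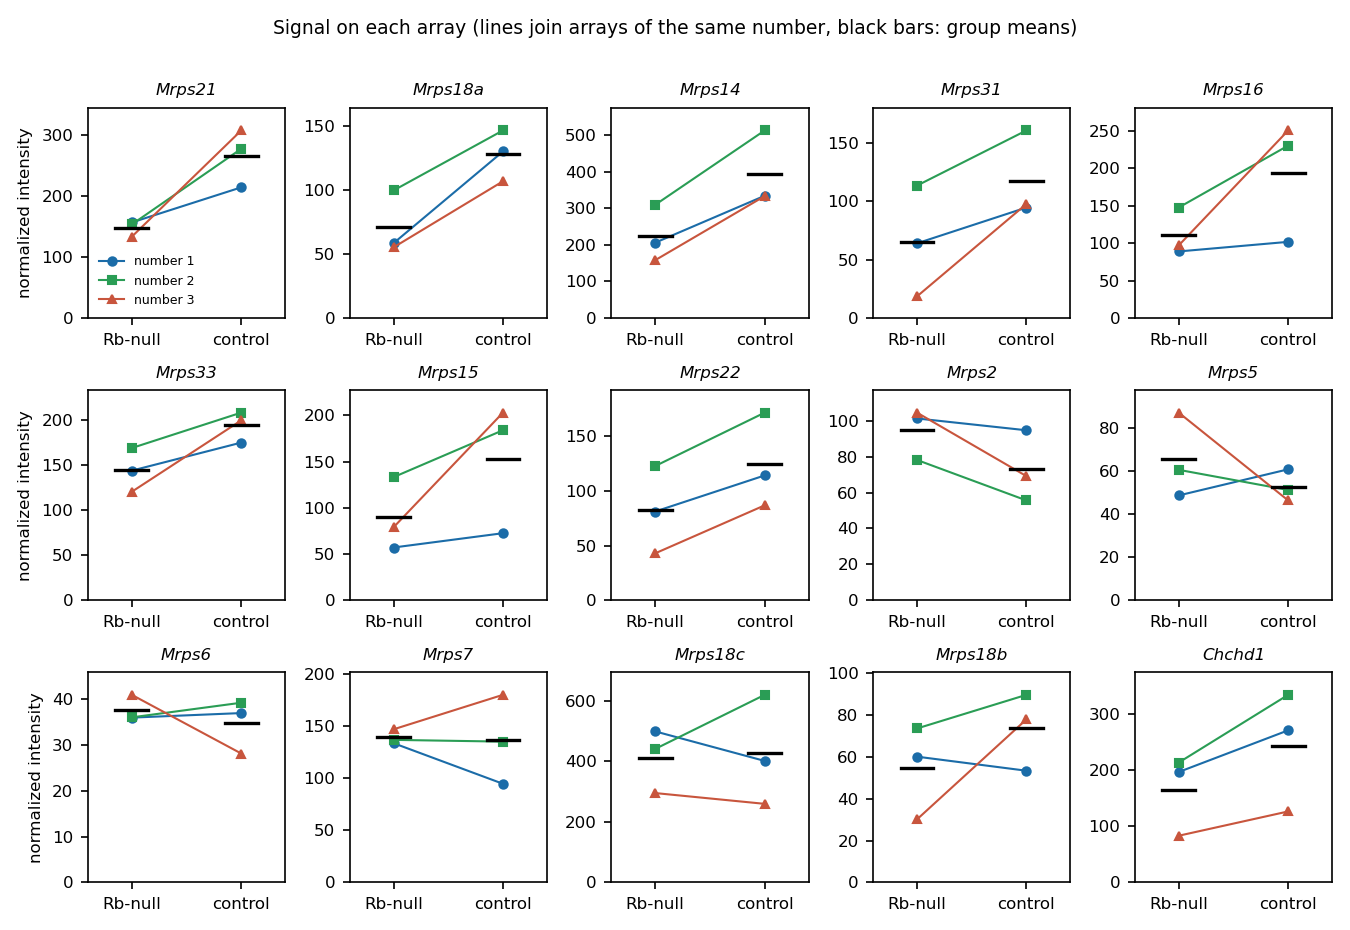
Normalized intensity (y axes, linear and starting at 0) on each Rb-null and control array for 14 Mrps genes and Chchd1, with lines joining arrays of the same number and black bars at group means. Lines run up to control in all 3 pairs for the first 8 genes, run down to control in all 3 pairs for Mrps2, and differ in direction between pairs for Mrps5, Mrps6, Mrps7 and Mrps18c.

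Array number went with the members' levels in both genotypes. For 16 of 29 members array 2 was the highest of its group in both Rb-null and control cells. The Rb-null value of array 2 exceeded the control value of array 1 for 17 members and that of array 3 for 18, so most groups overlapped although pairs differed. Relative to each gene's mean, the median member stood at -0.26, 0.21 and -0.43 (log2) on Rb-null arrays 1, 2 and 3, against 0.070, 0.49 and 0.16 on control arrays 1, 2 and 3. Within pairs, 16 of 29 members were lower in Rb-null cells in each of the 3 pairs (55.2%, against 24.1% of all tested genes) and 1, Mrps2, was higher in each (3.45%, against 18.4% of all tested genes). The pattern was shared with 2 lists described below. Of 47 large subunit genes 29 were lower and 2 higher in each pair. Of 22 cytosolic small subunit genes 17 were lower and 1 was higher in each. Rb-null was lower for 22, 23 and 23 members in pairs 1, 2 and 3, and the medians of the pair differences were -0.27, -0.42 and -0.35.

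**Figure D3:**
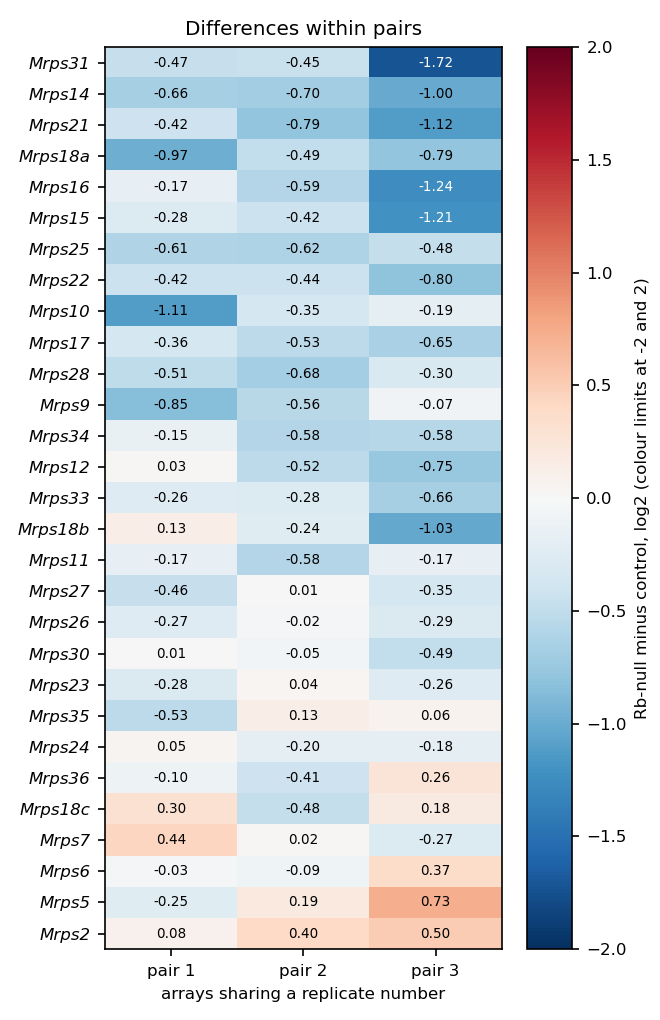
Difference Rb-null minus control (log2, colour and printed values) for each Mrps gene (rows) within arrays that share a replicate number (columns). Rows at the top are blue in all 3 pairs, as for Mrps14 with -0.66, -0.70 and -1.004, and Mrps2 at the bottom is red in all 3.

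By kind of protein, the median log2 fold change was -0.45 over the 16 members with a bacterial homolog and -0.39 over the 10 particular to mitochondrial ribosomes. All 10 of those particular to mitochondrial ribosomes, Mrps31, Mrps25, Mrps22, Mrps34, Mrps33, Mrps18b, Mrps27, Mrps26, Mrps23 and Mrps35, had negative values. Among the members with a bacterial homolog 11 were negative and 5 positive, and the difference between both kinds was not tested. Without control replicate 2 the median of those with a bacterial homolog was -0.11 and that of those particular to mitochondrial ribosomes -0.22. Without Rb-null replicate 3 these medians were -0.17 and -0.26.

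The 5 members with a positive value were all homologs of bacterial proteins. Mrps2 read 101, 78.2 and 105 in Rb-null cells, against 94.8, 55.6 and 69.2 in control cells, a log2 fold change of 0.33 (SE 0.28). The second Mrps2 probe set past the filter, nearly as bright, had -0.17 (SE 0.26), so its probe sets disagree. Mrps5, which lies near the path of the mRNA in the bacterial subunit, read 48.8, 60.7 and 87.4 in Rb-null cells, against 61.0, 51.3 and 46.5 in control cells. Its value of 0.22 (SE 0.28) was -0.57 without both arrays numbered 3, where another of its probe sets was the brightest and stood for the gene. Its 4 probe sets past the filter had 0.22, 0.15, -0.27 and -0.071.

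Mrps7, a homolog of a protein that organises the head of the bacterial subunit, read 134, 137 and 147 in Rb-null cells, against 94.7, 135 and 180.1 in control cells. The Rb-null arrays lay within the range of the control arrays, and the log2 fold change was 0.062 (SE 0.29), or 0.23 without both arrays numbered 3. Mrps6 was dim, with 36.0, 36.1 and 41.0 in Rb-null cells and 37.0, 39.3 and 28.2 in control cells, and had 0.085 (SE 0.25), or -0.059 without both arrays numbered 3.

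The Mrps18 family comprises 3 paralogs of 1 bacterial protein. In structures of the mammalian ribosome Mrps18c takes the place of that protein, Mrps18b sits elsewhere in the small subunit and was counted above among those particular to mitochondria, and Mrps18a sits in the large one. Mrps18a read 58.6, 99.9 and 55.3 in Rb-null cells, against 130.4, 147 and 107 in control cells. Its groups did not overlap, and the log2 fold change was -0.75 (SE 0.29, limma adjusted p = 1.00, and 0.138 with the block). Mrps18b read 60.1, 73.5 and 30.1 in Rb-null cells, against 53.3, 89.6 and 77.9 in control cells. It was higher in Rb-null cells in pair 1 and lower in the other pairs, with a log2 fold change of -0.38 (SE 0.33). That value was -0.051 without both arrays numbered 3 and -0.097 without Rb-null replicate 3. Mrps18c read 498, 441 and 295 in Rb-null cells, against 401, 619 and 259 in control cells. Its groups overlapped fully, with means of 411 ± 105 in Rb-null and 426 ± 181 in control cells (SD, n = 3 each) and a log2 fold change of 0.00078 (SE 0.37), or -0.082 without both arrays numbered 3. The differences among the paralogs were not tested.

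The protein of Mrps30 is likewise found in the large subunit, and that of Mrps36 belongs to the alpha-ketoglutarate dehydrogenase complex. Their log2 fold changes were -0.17 (SE 0.32) and -0.082 (SE 0.30). Without both arrays numbered 3 the values were -0.017 for Mrps30 and -0.26 for Mrps36. With Mrps18a these are the 3 symbols that do not name small subunit proteins. Mrps36 read 387, 253 and 296 in Rb-null cells, against 415, 341 and 244 in control cells, and pair 3 ran opposite to the other pairs.

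Of the remaining members, Mrps25, Mrps10, Mrps17, Mrps28, Mrps9, Mrps34, Mrps12 and Mrps11 had log2 fold changes between -0.57 and -0.31, and all but Mrps12 were lower in Rb-null cells in each pair. In the fit without the block the size of each depended on single arrays, and leaving out 1 array also breaks a pair. Within pairs 1, 2 and 3 the differences were -0.61, -0.62 and -0.48 for Mrps25 and -0.51, -0.68 and -0.30 for Mrps28. For Mrps10 they were less even, at -1.11, -0.35 and -0.19. Control array 2 was the highest control for most of these members, and without it the values were -0.075 for Mrps28, -0.15 for Mrps34, -0.15 for Mrps12, -0.18 for Mrps25, -0.21 for Mrps17, -0.26 for Mrps10 and -0.22 for Mrps11. Without Rb-null replicate 3 Mrps17 had -0.12 and Mrps28 -0.13, and without Rb-null replicate 1 Mrps11 had -0.18. In the other direction, the most negative values with 1 array left out were -0.98 for Mrps10, -0.96 for Mrps28, -0.93 for Mrps25 and -0.83 for Mrps17, each without control replicate 3. Without both arrays numbered 3 Mrps12 had -0.25. Mrps9 shows how far the arrays numbered 3 could differ, with 83.2, 96.4 and 7.49 in Rb-null cells, against 162, 149.9 and 8.63 in control cells. Array 3 was near the bottom of the scale in both groups, and the log2 fold change of -0.49 had an SE of 0.84, or 0.20 with the block. Without both arrays numbered 3 it was -0.71, and the control samples of arrays 1 and 2 then lay above both Rb-null samples. Mrps25 and Mrps10 were dim, at no more than 46.0 on any Rb-null array. Their values of -0.57 (SE 0.47, or 0.14 with the block) and -0.55 (SE 0.47, or 0.22 with the block) are thus shrunk by the offset. Mrps27, Mrps26, Mrps23, Mrps35 and Mrps24 lay between -0.27 and -0.11, and Mrps35 had -0.20 without both arrays numbered 3. By their suffix, the probe sets used for Mrps9, Mrps23, Mrps6, Mrps12 and Mrps24 may also match other transcripts.

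Of 52 probe sets naming a member alone, 43 passed the filter and 35 of these were lower in Rb-null cells. For 9 members more than 1 probe set passed, and in 4 of them, Mrps2, Mrps5, Mrps9 and Mrps11, the probe sets differed in sign. Of the 14 probe sets not used to represent a gene, 11 were lower in Rb-null cells. A further probe set that names both Mrps34 and the neighbouring Nme3 was left out.

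Small subunit proteins under other symbols were read from a list. Chchd1 read 197, 213 and 83.1 in Rb-null cells, against 271, 334 and 126 in control cells. It was lower in each pair, with a log2 fold change of -0.52 (SE 0.44, limma adjusted p = 1.00, and 0.193 with the block). Dap3, the GTP-binding protein of the subunit's head, read 341, 375 and 240.2 in Rb-null cells, against 348, 473 and 238 in control cells, with -0.11 (SE 0.33). Ptcd3, an RNA-binding protein at the mRNA entry, read 119.2, 96.1 and 156 in Rb-null cells, against 53.6, 80.9 and 192 in control cells, with 0.30 (SE 0.41) and a control range wider than the Rb-null range. Aurkaip1, the remaining protein of the list, was not analysed here.

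Genes of the large subunit also had mostly lower signal. Of 47 Mrpl genes, 42 had a negative log2 fold change and the median was -0.31, with medians of -0.22, -0.31 and -0.34 in pairs 1, 2 and 3. With 1 array left out this median was from -0.40 (without Rb-null replicate 2) to -0.20 (without control replicate 2), and it was -0.17 with the granulocyte level as a covariate. By unadjusted limma p under 0.05 with the block, 19 Mrpl genes were lower and 1 was higher, beside 9.14% and 7.77% of all tested genes. Mrpl52 had -0.87 (SE 0.30), Mrpl33 -0.73 (SE 0.31) and Mrpl22 -0.73 (SE 0.32), all with groups that did not overlap. With the block, a variance trend and robust moderation, limma called Mrpl52 (adjusted p = 0.0349), Mrpl22 (adjusted p = 0.0388) and Mrpl35 (adjusted p = 0.0445) lower, 3 of 47 (1.39% of all tested genes). Mrpl35 is named here after its value was seen. Genes for the small subunit of the cytosolic ribosome, which makes the cell's other proteins, had a median of -0.23 over 22 genes, 20 of them negative. At unadjusted limma p under 0.05 with the block 7 were lower and 1 was higher, beside 9.14% and 7.77% of all tested genes. The median of this list was -0.43 without Rb-null replicate 2, -0.16 without Rb-null replicate 3, -0.15 without control replicate 2 and -0.14 with the covariate. Rps14 had -0.46 (SE 0.25), Rpsa -0.45 (SE 0.29), and Rps27l, a known p53 target that resembles Rps27, 0.66 (SE 0.33). Limma called Rpsa lower with the block, a variance trend and robust moderation (adjusted p = 0.0388). Whether the Mrps genes differ from either list was not tested.

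Factors that build the mitochondrial ribosome or modify its rRNA had a median of -0.14 over 22 genes, 16 of them negative, with 2 lower and 0 higher by unadjusted limma p under 0.05 with the block. The 2 of 22 stand beside 9.14% of all tested genes and are near that share. The median was 0.00076 without Rb-null replicate 3 and -0.066 without control replicate 2. Ngrn had -0.51 (SE 0.28), C1qbp -0.67 (SE 0.48) and the helicase Ddx28 0.36 (SE 0.33). Some of the factors that act on the small subunit's rRNA were picked out after their values were seen, and they do not stand for all of them. The methyltransferase Tfb1m had -0.17 (SE 0.25), the GTPase Eral1, a chaperone of that rRNA, 0.26 (SE 0.32), and the binding factor Rbfa 0.011 (SE 0.39).

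Mitochondrial translation factors had a median of -0.074 over 13 genes, 7 negative and 6 positive. By the same rule 2 were lower and 1 was higher, beside 9.14% and 7.77% of all tested genes. The median of the list was from -0.23 (without control replicate 1) to -0.0044 (without Rb-null replicate 1) with 1 array left out. With the granulocyte covariate it was 0.00062. The release factor Mtrf1l had 1.16 (SE 0.57), the elongation factor Gfm1 -0.70 (SE 0.38) and Slirp, which stabilises mitochondrial mRNAs, -0.73 (SE 0.49). Limma called Mtrf1l with the block, a variance trend and robust moderation (adjusted p = 0.023), where 2.18% of all tested genes were called higher.

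Of the 13 protein-coding genes of the mitochondrial genome, whose mRNAs these ribosomes translate, 1 was tested, ND5. It read 792, 1761 and 888 in Rb-null cells, against 1673, 2485 and 1683 in control cells. Rb-null array 2 lay above control arrays 1 and 3, and each pair was lower in Rb-null cells, with differences of -1.06, -0.49 and -0.91. The log2 fold change was -0.82 (SE 0.36), with limma adjusted p = 1.00, 0.135 with the block, and 0.032 with the block, a variance trend and robust moderation.

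Regulators of transcription for mitochondrial genes had a median of 0.089 over 12 genes, with 7 positive. At unadjusted limma p under 0.05 with the block 0 were lower and 2 were higher, beside 9.14% and 7.77% of all tested genes. The median of the list was from 0.017 (without control replicate 3) to 0.23 (without control replicate 1) with 1 array left out. Yy1, whose site letters were searched above, had 0.80 (SE 0.36) and was called higher by limma with the block, a variance trend and robust moderation (adjusted p = 0.0385). Gabpb1, a beta subunit of the ETS factor GABP, had 0.77 (SE 0.47), and Gabpa, its DNA-binding subunit, 0.29 (SE 0.43). Another beta subunit, Gabpb2, and Nrf1 and Tfam, which packages mitochondrial DNA, were added after their values were seen. They had -0.080 (SE 0.51), -0.017 (SE 0.25) and 0.11 (SE 0.25).

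**Figure D4:**
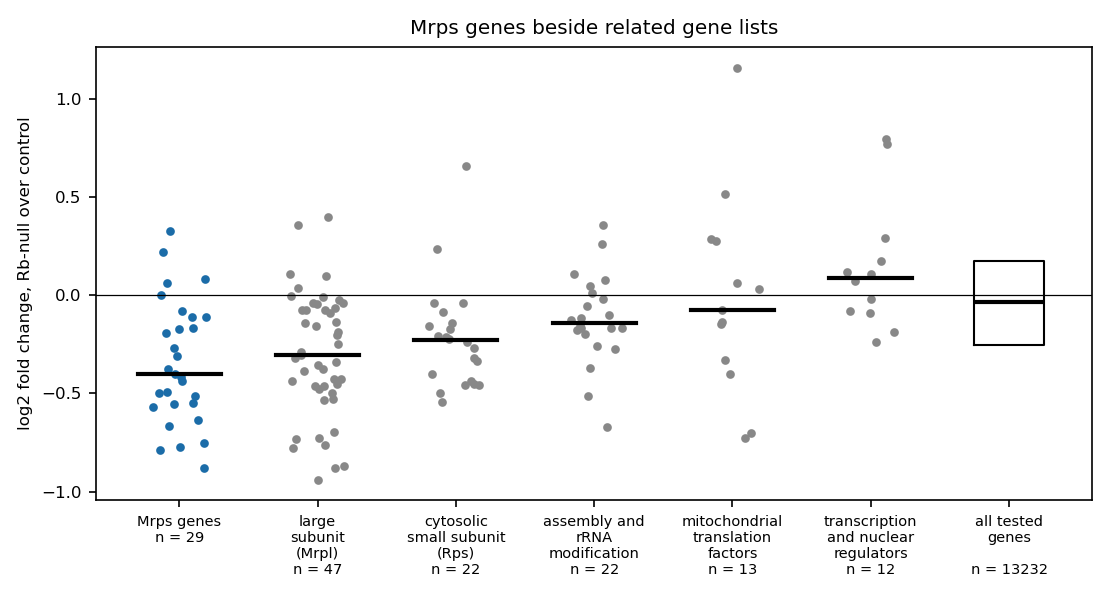
Log2 fold change, Rb-null over control (y axis), of the Mrps genes and of 5 related lists, each point a gene and each bar the list's median, beside a box that spans the quartiles, with a bar at the median, of all tested genes. The median is -0.40 for the Mrps genes, -0.31 for the large subunit, -0.23 for the cytosolic small subunit and -0.036 for all tested genes.

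Markers of other marrow cells also had mostly lower signal in Rb-null samples, and the sums below include markers under the filter. Granulocyte markers had a median log2 fold change of -0.46, with 15 of 16 negative, and their summed normalized intensity was 27434, 49758 and 35240 on Rb-null arrays 1, 2 and 3, against 37797, 50035 and 44014 on control arrays 1, 2 and 3. Their part in the result was not tested. The covariate fit below cannot set it apart, since the granulocyte level varied with array number as well as with group. Macrophage markers were negative for 9 of 10 genes (median -0.41), with sums of 1286 to 1878 on Rb-null and 1528 to 3279 on control arrays. B cell markers were negative for 6 of 7 genes (median -0.50), with sums of 300.1 to 586 on Rb-null and 477 to 1007 on control arrays. T and NK cell markers were negative for 3 of 4 genes (median -0.18, sums of 338 to 561 on Rb-null and 411 to 632 on control arrays) and megakaryocyte markers for 4 of 4 (median -0.29, sums of 296 to 425 on Rb-null and 321 to 659 on control arrays). Cd3e and Ebf1, defining genes of T and B cells, did not pass the filter, and their highest deposited intensities were 30.4 and 35.8. Erythroid markers had a median of 0.040 over 6 genes, 2 negative and 4 positive, and single genes were less even. Their summed intensity was 32356 to 34632 on Rb-null arrays and 31029 to 34426 on control arrays. Epor read 235, 1959 and 641 on Rb-null arrays 1, 2 and 3, against 2358, 238 and 706 on the control arrays. Klf1 had 0.45 (SE 0.29) and was higher in Rb-null cells in each pair. Limma called it higher with the block, a variance trend and robust moderation (adjusted p = 0.0478), where 2.18% of all tested genes were. The alpha globin gene Hba-a1, a defining red cell gene, was below the filter on probe sets that name it alone, with a deposited intensity of at most 27.0. Probe sets that name several genes were left out, so this value is not a measure of alpha globin as a whole. In pair 2 the granulocyte markers had a median difference of 0.00 and the Mrps genes one of -0.42. In pairs 1 and 3 the granulocyte medians were -0.75 and -0.64 and those of the Mrps genes -0.27 and -0.35. For pairs 1, 2 and 3 the B cell medians were -0.53, -0.27 and -0.82, and the megakaryocyte medians -0.059, -0.18 and -0.58. Macrophage medians were -0.39, 0.059 and -1.01, and those of T and NK cells -0.22, 0.059 and -0.17. The part of these cells in the result was not tested. With the mean granulocyte level as a covariate the Mrps median was -0.20, with 23 of 29 members negative.

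The size of the members' median depended on which arrays were used. Leaving out single arrays moved it as given above, and leaving out whole pairs moved it less, to -0.38, -0.36 and -0.36 without both arrays numbered 1, 2 and 3, with 27 of 29, 21 of 27 and 27 of 29 members negative. Leaving out pairs 1 and 2 was an alternative chosen after seeing the data.

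**Figure D5:**
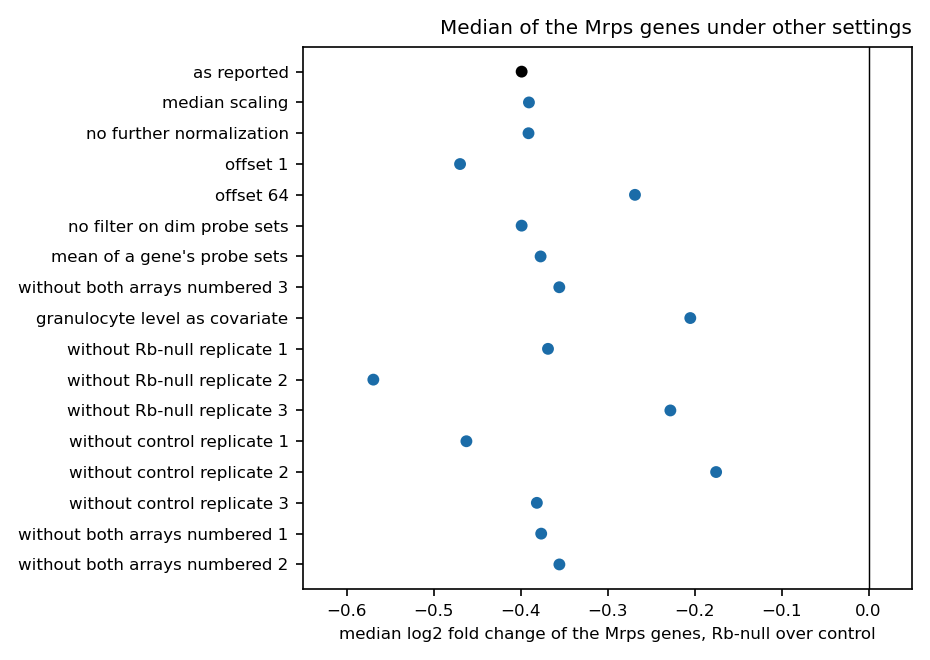
Median log2 fold change of the Mrps genes (x axis, Rb-null over control) under each processing setting (y axis) other than the block fits, which leave it unchanged, with the reported value of -0.40 in black. All medians are negative, from -0.57 without Rb-null replicate 2 to -0.18 without control replicate 2.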

How the data were processed

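RNA of sorted CD71+/Ter-119+ mouse bone marrow cells was labelled with biotin and read on single-colour Affymetrix arrays, 3 Rb-null and 3 control, per the labels. The authors deposited 1 linear intensity per probe set, and the summary method and the scaling between arrays are not given in the sources used here. Median deposited intensities were 23.3 to 31.2, and the small number of arrays limits precision. Of 45101 probe sets, 64 controls, 4 empty ones and 1 with a value above the range of the scanner were left out. Symbols came from the platform annotation, updated by gene ID to RefSeq (34941 probe sets with 1 gene, 932 with several, 9159 with none), and only probe sets with 1 gene were used. Quantile normalization followed on log2(intensity + 16). Probe sets at or under the 40th percentile of mean signal, log2 5.12 or an intensity of 18.9, were dropped, and the brightest one left stood for its gene.

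Differences were tested with limma 3.58.1 in R 4.3.3, 2-sided, with Benjamini-Hochberg adjustment over 13232 genes and a threshold of 0.05. The direction given by the fit was checked on simulated data with changes larger than any member's. That check does not cover calls of changes of the members' size. With 3 against 3 arrays the smallest p of an exact permutation test is 0.1, and for that reason limma alone was used on single genes. The number of an array was taken from the labels, which do not say what it marks. Deviations from the group means correlated at r = 0.636, 0.615 and 0.653 between same-numbered arrays of both groups, against at most 0.037 between other arrays, so the numbers pair the arrays. A fit with the number as a block is given where it changes a count of calls.

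Members and lists were chosen with earlier results of these data known. Array values are given for the 8 members with the smallest p, those with a positive log2 fold change, the Mrps18 paralogs and small subunit proteins with other symbols, and up to 3 genes with the smallest p are named from other lists. Array values of Mrps9, Mrps36, Rb1 and Tfrc, mean values of Rps14, Rps16 and Rps27, and the named marker genes were added after their values were seen. The other alternatives were the offset, the normalization, the filter, the probe set rule, the granulocyte level as a covariate and leaving out arrays.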

Additional observations from a re-analysis of the deposited data

How the results depend on the processing

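Under 16 alternatives the median log2 fold change of the Mrps genes stayed negative, between -0.57 and -0.18, and 21 to 27 members were lower in Rb-null cells. Of the 24 lower members 19 stayed lower under each, and of the 5 higher ones Mrps2 did. The median moved to -0.27 with an offset of 64 and to -0.20 with the granulocyte level as a covariate, and leaving out 1 array at a time gave -0.57 to -0.18. An offset of 64 gave 2 called genes in all, and the replicate block with a variance trend and robust moderation 473 in all and 1 Mrps gene, Mrps14. The replicate block alone left 0 genes called and the medians as they were. Mrps18c turned to -0.0039 with an offset of 64, to -0.016 with the covariate and to -0.082 without both arrays numbered 3. The covariate turned Mrps24 to 0.017 and Mrps35 to 0.17, and leaving out both arrays numbered 3 turned Mrps5 to -0.57 and Mrps6 to -0.059. With 1 array left out, the ranges that crossed 0 were -0.30 to 0.30 for Mrps18c, -0.30 to 0.018 for Mrps24, -0.37 to 0.11 for Mrps30, -0.45 to 0.10 for Mrps35, -0.28 to 0.085 for Mrps36, -0.18 to 0.38 for Mrps5, -0.013 to 0.15 for Mrps6, -0.15 to 0.26 for Mrps7 and -1.44 to 0.23 for Mrps9. The cause of these changes was not tested. Dim members such as Mrps10, Mrps25 and Mrps35 lie near the filter, where signal over background limits precision.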
